A study of Homo sapiens with 7 samples.

Results

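H3K27ac HiChIP, which enriches for chromatin contacts at DNA carrying acetylated lysine 27 of histone H3, was used to describe the contacts of PRKD1 in 3 human cancer cell lines. A loop is a pair of different DNA segments (anchors) joined by read pairs, and every list holds loops with at least 3 read pairs. The PRKD1 loops were those with an anchor over a 500 bp window centred on any PRKD1 start site, plus loops with both anchors between positions 30000000 and 30500000 of chromosome 14. This gave 277 of the 354783 loops in the 3 lists, of which 262 were in LNCaP, 15 in Ishikawa and 0 in T-47D. PRKD1 was chosen by its high LNCaP read pair counts, so those counts are given as a description, with no test.

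Ishikawa is an endometrial adenocarcinoma line, and its list combined 4 samples, 2 with the vehicle DMSO and 2 with 10 nM 17β-estradiol (E2) for 1 h. T-47D is a breast ductal carcinoma line with 1 sample, and LNCaP is a prostate carcinoma line with 2 samples, with no treatment given in the labels for either. The restriction enzyme was DpnII for Ishikawa and MboI for the other lines, which recognise the same site, GATC. The sonicator, the read length and the depth of sequencing changed with the enzyme. Their effects cannot be told apart from those of the line where Ishikawa is set against the others. Per the study's methods, T-47D and LNCaP shared these settings, but their lists came from 1 and 2 samples. Each line is 1 list with no replicate error. The Ishikawa list held 163530 loops with 1040329 read pairs. The T-47D list held 42027 loops with 351260, and the LNCaP list held 149226 loops with 1805322. Each marker gene looked at had its highest read pair count in the line it marks, with 2936 for KLK3 (prostate-specific antigen) in LNCaP against 6 in Ishikawa and 0 in T-47D, 1063 for GATA3 in T-47D against 7 in Ishikawa and 0 in LNCaP, and 162 for PAX8 in Ishikawa against 0 in the other lines.

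PRKD1 encodes protein kinase D1, a serine/threonine kinase that is recruited to membranes by diacylglycerol and switched on when protein kinase C phosphorylates it. Phospholipase C makes the diacylglycerol and diacylglycerol kinases remove it. Active protein kinase D acts on Golgi proteins, class IIa histone deacetylases and regulators of the actin skeleton, and in prostate epithelium it has been studied for its part in cell adhesion.

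The gene (ENSG00000184304.17_16) lies on the minus strand at chr14:30045685-30661104 of GRCh37 (hg19), so upstream positions have higher coordinates. The annotation gave 12 transcripts and 11 distinct start sites. The canonical transcript, PRKD1-201, has 18 exons and starts at position 30397053, and its intron 1 (30194881 to 30396454) is 202 kb long. The sequence just upstream of this start is shown because the canonical start lay under one of the widest LNCaP anchors. It held 6 matches to the GC box GGGCGG on either strand, 2 as GGGCGG and 4 as CCGCCC, which are in capitals. Of 19862 promoters of the same length, 59.2% held at least 1 match and 3.99% held as many. Its GC content was 82.8% against a median of 63.2% over those promoters, and it held 36 CpG against a median of 18.
PRKD1 promoter, chr14:30397054-30397303, minus strand: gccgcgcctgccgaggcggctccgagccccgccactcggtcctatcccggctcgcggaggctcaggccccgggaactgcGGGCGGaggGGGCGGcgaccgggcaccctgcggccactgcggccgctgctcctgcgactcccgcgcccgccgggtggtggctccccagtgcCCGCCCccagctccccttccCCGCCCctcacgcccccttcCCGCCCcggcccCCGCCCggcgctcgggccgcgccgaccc

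The 3 strongest loops of the gene joined the same 3 wide anchors in each possible pairing. The promoter anchor (chr14:30350014-30399003, 48.99 kb) covered exon 1, the canonical start and the adjoining part of intron 1. The intron 1 anchor (chr14:30254697-30299961, 45.3 kb) lay wholly inside that intron. The exon 2 anchor (chr14:30188431-30239088, 50.7 kb) covered exon 2 and the start at position 30194880 of PRKD1-209 and PRKD1-210, which are annotated as targets of nonsense-mediated decay. The anchors are named for the feature that tells them apart, since most of each was intron 1 sequence, with 46.4 kb of the promoter anchor (94.8%) and 44.2 kb of the exon 2 anchor (87.3%) in that intron. The fourth strongest loop joined the promoter anchor to an upstream anchor (chr14:30469068-30476605, 7.54 kb), whose centre lay 75.8 kb upstream of the canonical start. The upstream anchor overlapped the lncRNA gene ENSG00000248975. It also lay inside the annotated PRKD1 gene, between the canonical start and the outermost start at position 30661104. The reference sequence at the anchor edges is shown because anchor ends are set by the enzyme site, in capitals, and the edge positions therefore carry no finer resolution than the fragments. All 87098 LNCaP anchor edges lay at a GATC.
promoter anchor, left edge, chr14:30350002-30350025, plus strand: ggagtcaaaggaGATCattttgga
promoter anchor, right edge, chr14:30398991-30399014, plus strand: cttgccctaaaaaGATCacagtga
intron 1 anchor, left edge, chr14:30254685-30254708, plus strand: gtctatatataaGATCacgtcatc
intron 1 anchor, right edge, chr14:30299949-30299972, plus strand: aatgtagtggcatGATCacggctc
exon 2 anchor, left edge, chr14:30188419-30188442, plus strand: aacttatgatggGATCctagtgat
exon 2 anchor, right edge, chr14:30239076-30239099, plus strand: ttatacctgctatGATCtaaacgt
upstream anchor, left edge, chr14:30469056-30469079, plus strand: agtggagtgaggGATCttgctgaa
upstream anchor, right edge, chr14:30476593-30476616, plus strand: gctgatatgtaaaGATCttcaaaa

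In LNCaP, the PRKD1 loops held 22239 read pairs, or 1.23% of the read pairs of the list (95% Wilson interval 1.22 to 1.25%), while they made up 0.176% of its loops. In Ishikawa, they held 56 read pairs, or 0.00538% (0.00415 to 0.00699%). In T-47D, no PRKD1 loop was listed. These intervals cover counting error only. The 500 kb window of the rule held 21115 LNCaP read pairs, the most of the 4084 bins of that size with loops in the line, and the next bin held 15898. By number of loops (174) the same window was 11th, so its place differed between read pairs and loops.

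The LNCaP loops were of 3 kinds. Loops with an anchor over a start site and both anchors inside the window numbered 83, loops with an anchor over a start site that left the window numbered 88, and loops inside the window with no start site numbered 91. The median loop held 10 read pairs over a span of 224 kb, against 5 read pairs and 113 kb over all LNCaP loops, and spans ran from 7.01 to 1486 kb. At least 10 read pairs were found in 132 PRKD1 loops (50.4%), against 27.4% of all LNCaP loops. At least 100 were found in 31 (11.8%) against 1.15%, at least 500 in 10 (3.82%) against 0.071%, and at least 1000 in 4 (1.53%) against 0.0228%. At the low end, 41 loops stood at the list minimum of 3 read pairs. The last window anchor on the upstream side (30495889 to 30499425) had 538 read pairs in the set, and the next anchor of the set beyond the edge (30605888 to 30608629) had 16. The rule counts these differently, since beyond the edge it takes loops to a PRKD1 start site alone, and over all their loops the 2 anchors had 565 and 53 read pairs.

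The loop between the exon 2 and intron 1 anchors held 3007 read pairs over a span of 63.6 kb and was the strongest loop of the LNCaP list. The loop between the intron 1 and promoter anchors held 2597 over 97.2 kb and was second. The loop between the exon 2 and promoter anchors held 2093 over 161 kb and ranked 5. These 3 loops carried 34.6% of the read pairs of the PRKD1 set, its 10 strongest loops carried 58.4%, and its 20 strongest carried 74.2%. The contact signal of the gene was therefore held mostly by a small number of its loops.

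The next loops led from the same wide anchors to nearby segments. The promoter anchor was joined to the upstream anchor by 1099 read pairs (rank 26 in the list), to a 13.1 kb anchor in intron 1 (30335939 to 30349070) by 934 and to a 23.7 kb anchor in intron 1 (30310718 to 30334378) by 697. The intron 1 anchor was joined to these by 554, 683 and 800 read pairs. The tenth loop joined the promoter anchor to a 10.998 kb anchor centred 61.4 kb upstream of the canonical start (30452976 to 30463973) with 534. That anchor too lay inside the annotated gene. All 10 of the strongest loops had the promoter anchor, the intron 1 anchor or both as a partner.

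**Figure D1:**
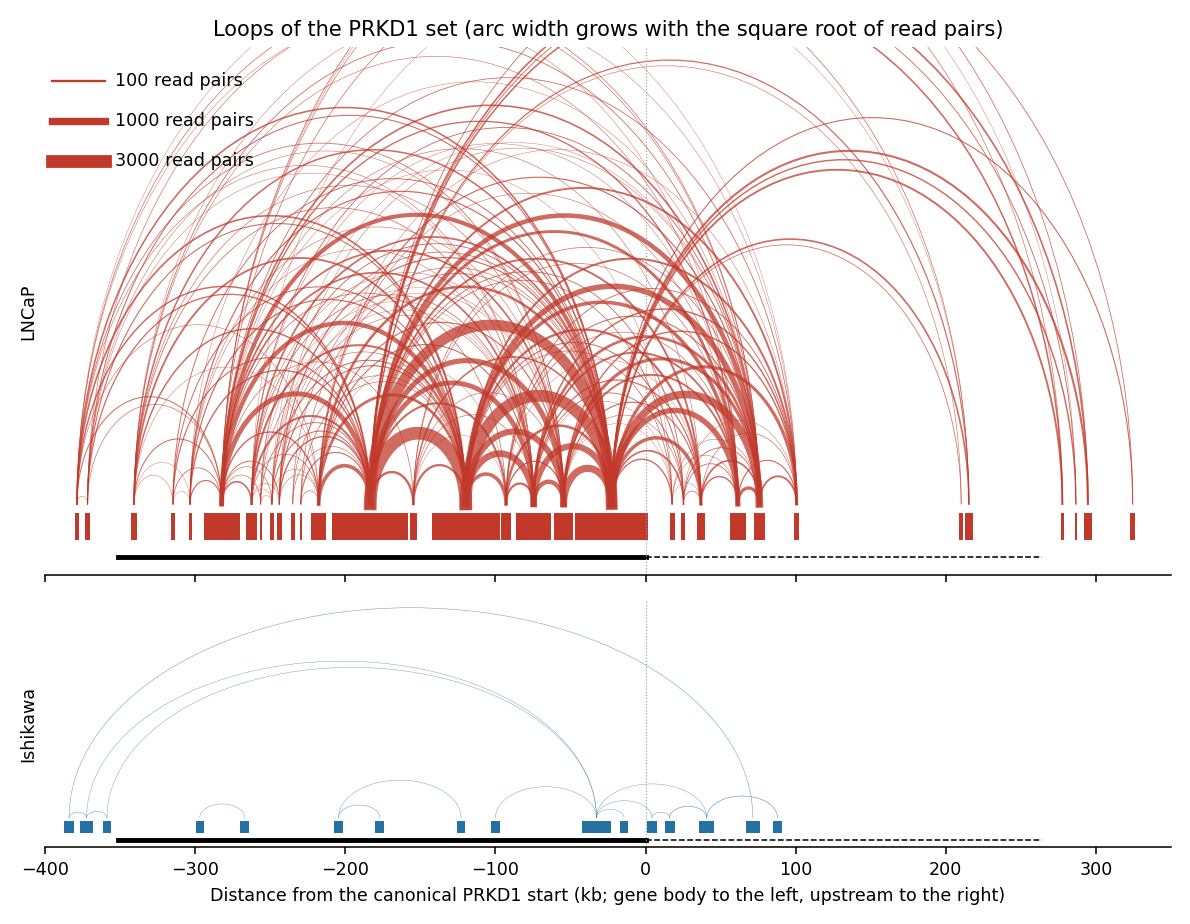
Loops of the PRKD1 set in LNCaP (top, red) and Ishikawa (bottom, blue) by distance in kb from the canonical start, with upstream to the right. Boxes are anchors, and arc width grows with the square root of read pairs. Loops with an end outside the plotted range of distances are not drawn, and the tallest LNCaP arcs are cut at the top. The thick line is the gene body from the canonical start and the dashed line runs to the outermost annotated start. T-47D had no loop to draw, and the heaviest LNCaP arcs join the 3 wide anchors, with 2093 to 3007 read pairs.

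A wide anchor can gather more read pairs than a narrow one, so the strength was also set against width. The 3 wide anchors were 5th, 7th and 14th by width among 43549 LNCaP anchors (exon 2, promoter and intron 1), and 5 of the 71 anchors of the PRKD1 set were 20 kb or wider, against 0.374% of all LNCaP anchors. Divided by the product of the anchor widths in kb, the 3 strongest loops held 1.31, 1.17 and 0.843 read pairs per square kb and ranked 8459th, 10550th and 19152nd of the 149226 loops. Divided by the width of the wider anchor, they ranked 5th, 12th and 22nd. Among loops of a span within 1.2-fold, each of the 3 was first by read pairs. Per square kb, they were 312th of 12861, 333rd of 14835 and 613th of 16306 such loops. The top ranks of these loops thus held on the read pair scale, and not after division by the area of the anchor pair.

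The loop from the promoter anchor to the upstream anchor kept a high place on both scales. It held 2.98 read pairs per square kb, which was 1121st in the list and 8th of 14870 loops of a like span, and it was 4th of these by read pairs. Over all its loops, the upstream anchor had 31 partners and 2950 read pairs, or 391 read pairs per kb of its width, the second highest of the 43549 LNCaP anchors. The corresponding values were 202 for the promoter anchor, 213 for the intron 1 anchor and 166 for the exon 2 anchor, at ranks 34, 27 and 59. Width moved with read pairs in these data, and its part in the strength of the loops was not tested.

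Few LNCaP loops joined anchors as wide as these. Both anchors were 40 kb or wider in 6 loops of the list, 3 of them the PRKD1 loops with 2093 to 3007 read pairs, and the highest of the other 3 held 1896. With both anchors 20 kb or wider, the 144 loops of the list had a median of 234.5 read pairs, and the 10 PRKD1 loops among them had a median of 570.0 with a lowest value of 56. Across the 262 loops, Spearman's rho of read pairs was 0.579 with the product of the widths and −0.368 with span. Over all 149226 LNCaP loops these were 0.311 and −0.340. Loops share anchors, so they are not independent points.

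**Figure D2:**
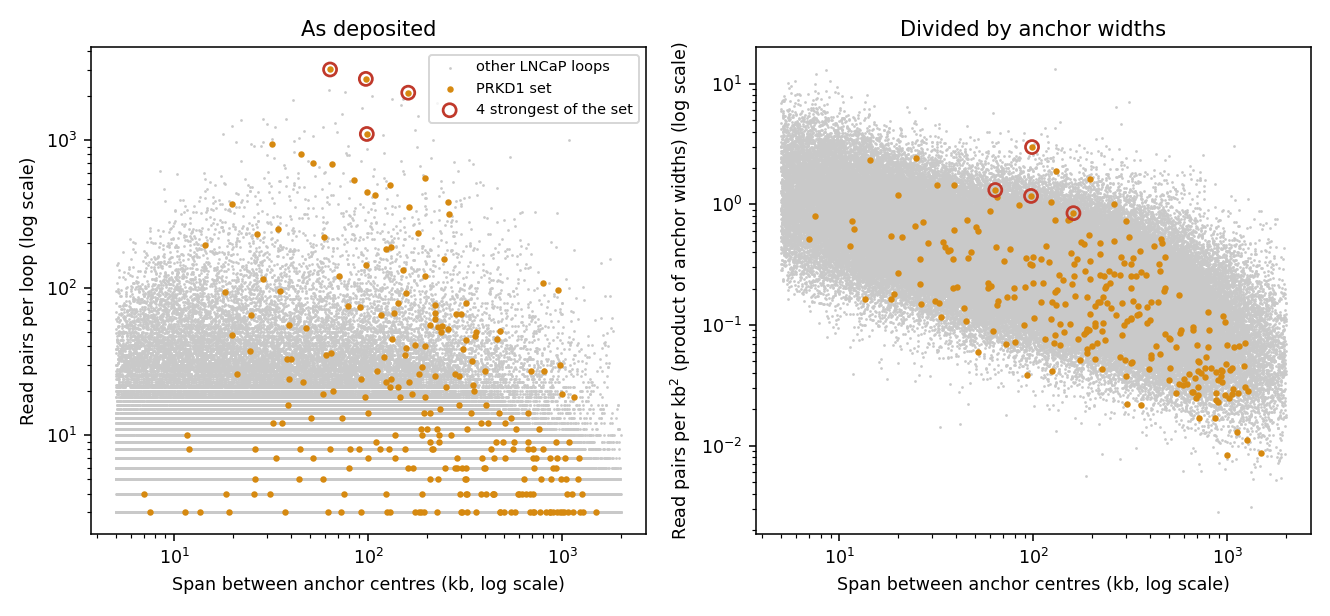
Read pairs per loop (left) and read pairs per square kb of the anchor pair (right) against span in kb for LNCaP loops, all axes on a log scale. Orange points are the 262 PRKD1 loops and grey points the other loops of the list. Red circles are the 4 strongest PRKD1 loops, with 1099 to 3007 read pairs. The 3 strongest stand at the top of the left plot and inside the grey cloud on the right. The fourth, to the upstream anchor, ranked 26 by read pairs and was 8th of 14870 loops of a like span per square kb.

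The loops inside the window joined many of its anchors to each other. Of the 325 possible pairs among its 26 LNCaP anchors, 174 (53.5%) were listed as loops. This share was not computed for other windows, so it is a description without a comparison. The 8 anchors of 10 kb or wider were joined in all 28 possible pairs, with 6 to 3007 read pairs, and these loops carried 67.5% of the read pairs of the set. Each of the 3 widest anchors sent most of its read pairs to the window, at 94.2% for the promoter anchor (63 partners, 9887 read pairs), 95.5% for the intron 1 anchor (60 partners, 9653) and 94.6% for the exon 2 anchor (60 partners, 8391). Contacts among these 3 alone made up 47.4, 58.1 and 60.8% of their read pairs. Narrow anchors varied. The 1.27 kb anchor in intron 2 (30166887 to 30168159) had 49 read pairs in the set over 4 partners. The 3.54 kb anchor at 30495889 to 30499425 had 538 over 14 partners.

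**Figure D3:**
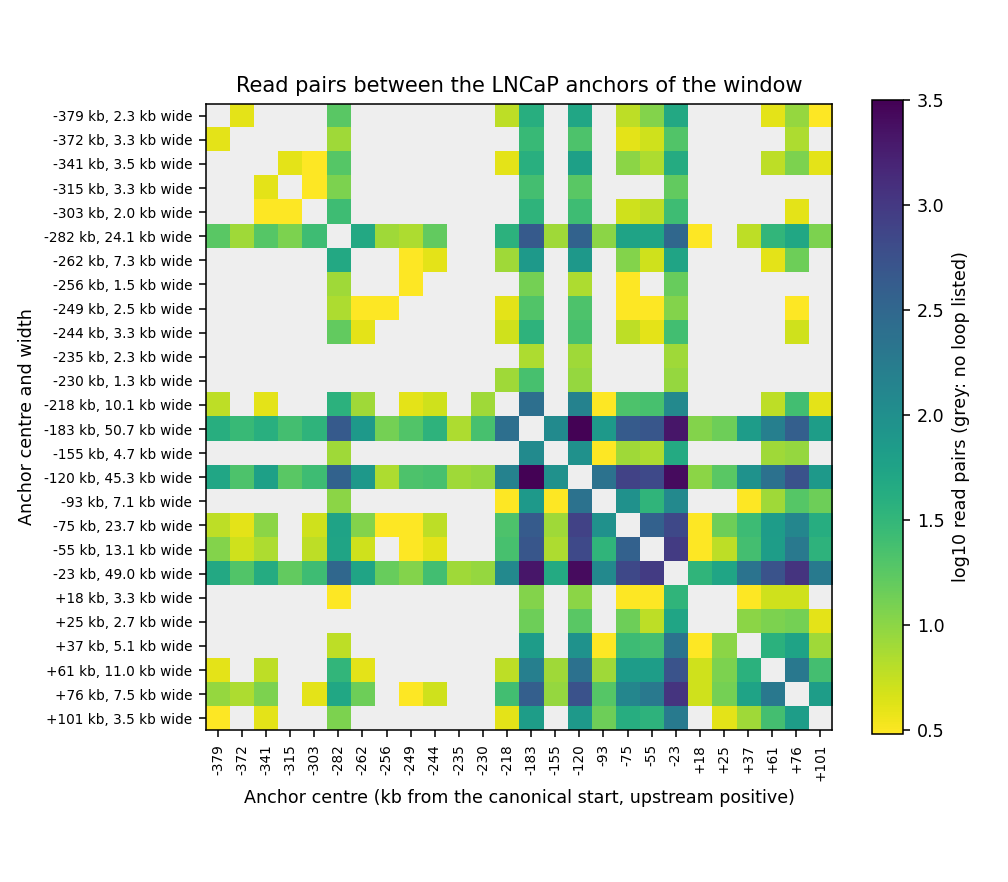
Read pairs on a log10 colour scale between each pair of the 26 LNCaP anchors inside the window, ordered along the chromosome and labelled by the distance of their centre from the canonical start and by width in kb. Grey cells are pairs with no listed loop, and the rows of the 3 widest anchors are filled almost throughout, with the darkest cells where they meet, at 2093 to 3007 read pairs.

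Loops that left the window held at most 108 read pairs each. In LNCaP, 65 PRKD1 loops spanned at least 500 kb and together held 647 read pairs, and the 15 loops of at least 1000 kb held at most 18 each. Loops of the intron 1 anchor past the window (35, with 439 read pairs) are outside these counts, since that anchor covers no start site. Some are given below. Read pairs also fell with span over all LNCaP loops (Spearman's rho −0.340), and loops of a like span were not compared here. The strongest distant partner was a 16.6 kb anchor 975 kb downstream of the canonical start (29413684 to 29430255), over the lncRNA genes LINC02327 and LINC02326. It was joined to the exon 2, intron 1 and promoter anchors by 108, 107 and 96 read pairs. This downstream anchor had 52 partners and 1598 read pairs over all its loops. Of these, 237 read pairs were in the PRKD1 set, which leaves out its loop to the intron 1 anchor. Most of its read pairs thus lay in loops to other partners, and its contacts were not specific to PRKD1. On the upstream side, an anchor at 30689153 to 30694171 was joined to the promoter, intron 1 and exon 2 anchors by 79, 56 and 51 read pairs. Both distant anchors were partners of all 3 wide anchors, and the counts to the downstream one were close to each other.

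**Figure D4:**
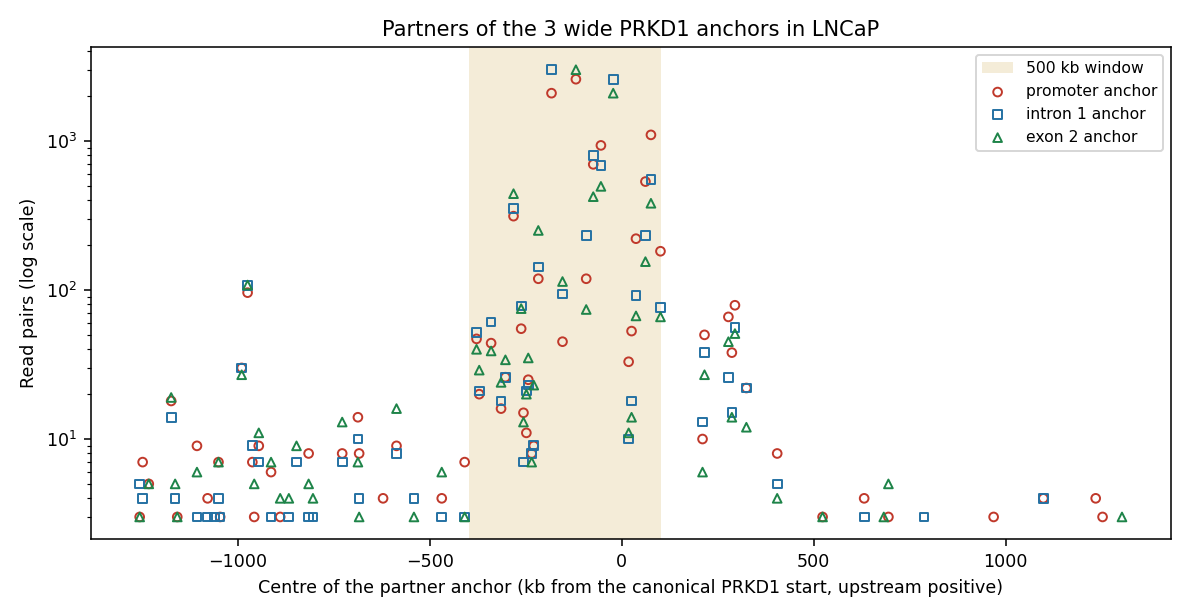
Read pairs (log scale) of every partner of the promoter, intron 1 and exon 2 anchors in LNCaP against the distance of the partner's centre from the canonical start in kb, upstream positive. The shaded band is the 500 kb window, where counts reach 3007, and outside it the highest point is 108 read pairs, about 975 kb downstream.

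Promoters of other protein-coding genes took little part in these contacts. In LNCaP, PRKD1 start sites were joined to the promoter of G2E3, a ubiquitin ligase, by 7 read pairs and to that of SCFD1, which acts in vesicle traffic, by 8. A further loop of 4 read pairs reached an anchor shared by the promoters of STRN3, a subunit of a phosphatase complex, and AP4S1, a subunit of an adaptor complex. In Ishikawa and T-47D, no such loop was listed. These neighbours had their own LNCaP promoter loops, with 37 read pairs at G2E3, 92 at SCFD1, 349 at STRN3 and 413 at AP4S1, against 17318 at PRKD1. COCH, which encodes a protein of the inner ear, had 106 read pairs in Ishikawa and 0 in LNCaP and T-47D.

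Counted over any start site, PRKD1 had 171 LNCaP promoter loops, and its 17318 read pairs were the highest of 20163 protein-coding genes, ahead of 14365 at the second. With the canonical start alone, it had 63 loops and 9887 read pairs, again the highest, ahead of 6348. The rule used these counts. Anchors without a protein-coding promoter that were joined to a PRKD1 start numbered 61, the 7th highest, against 74 at the first gene. In Ishikawa, the gene had 2 such anchors and 7 read pairs, from the start at position 30194880 alone, and 0 from the canonical start. In T-47D, it had 0. Of the 11 start sites, 8 lay under a LNCaP anchor, and the outermost start at position 30661104 (PRKD1-206) lay under no loop anchor in any list.

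The 15 Ishikawa loops were weak. Their strongest value was 6 read pairs, in 2 loops upstream of the canonical start that joined the anchor at 30432740 to 30442952 with those at 30409874 to 30416359 and 30482103 to 30487858. A further 5 loops held 4 read pairs and 8 held 3. None reached 10 read pairs, against 16.9% of all Ishikawa loops. They joined 15 of the 120 possible pairs (12.5%) among 16 anchors. Of these anchors, 13 overlapped a LNCaP anchor, whereas 9 of the 26 LNCaP window anchors overlapped one of Ishikawa. An Ishikawa loop with both ends on the LNCaP pair was found for 7 of the 15, among them 1 loop of 3 read pairs where LNCaP had 3007 and 1 of 3 where LNCaP had 2597. The shares of joined pairs and of overlaps were not computed over the whole lists. Wide anchors can overlap more than narrow ones, so these counts describe positions only and do not set PRKD1 apart. The Ishikawa list is made of 4 sorted parts that carry no sample name, in which 8, 2, 0 and 7 of the loops were found, so the E2 and vehicle samples could not be compared.

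In T-47D, no loop anchor touched the gene. The nearest anchors ended at position 27149871 on one side and began at 30824677 on the other, a stretch of 3675 kb with no listed anchor. This list had the fewest read pairs of the 3, and loops below 3 read pairs are not in it, so weak contacts would not be seen.

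The genes most like PRKD1 were found by Euclidean distance over the 3 lists, on the log2 share of the list's read pairs that lay in loops of the gene's promoter, with counts below 3 set to 3. The nearest was ZBTB16, a zinc finger transcription factor, at a distance of 1.67, with 7849 read pairs in LNCaP and 0 in the other lines. BDP1, a subunit of the factor that places RNA polymerase III, was at 2.33 with 3561 in LNCaP, 5 in Ishikawa and 0 in T-47D. KLK3 was at 2.57. The lists give 3 values per gene, and the distance describes those values only.

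The protein kinase D pathway was looked at through a list of 30 genes. A promoter loop was listed for 23 of them (76.7%) in Ishikawa, against 57.3% of all protein-coding genes, for 21 (70.0%) in T-47D, against 49.2%, and for 24 (80.0%) in LNCaP, against 58.1%. Their median read pairs were 16 for Ishikawa against 4 over all genes, 8.5 for T-47D against 0, and 46 for LNCaP against 13. Without PRKD1 the LNCaP median was 42. These counts are not scaled for depth and are set against each other only within a line.

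Among the kinases, PRKD2 had 42 read pairs in LNCaP, 46 in Ishikawa and 20 in T-47D. PRKD3 had 9, 8 and 6. Both paralogs thus had promoter loops in all 3 lists, unlike PRKD1. Upstream of the kinase, the phospholipase gene PLCB4 was second to PRKD1 in LNCaP with 1729 read pairs, and it had 9 in Ishikawa and 7 in T-47D. PLCE1, another phospholipase gene, had 514 in Ishikawa and 0 in the other lines. Of the protein kinase C genes, PRKCH had 882 in LNCaP, 80 in Ishikawa and 103 in T-47D, and PRKCD had 442, 6 and 23. DGKA, a diacylglycerol kinase, had 935, 187 and 255. Of the targets, HDAC7, a class IIa histone deacetylase, had 53 in LNCaP, 514 in Ishikawa and 146 in T-47D. PRKCQ had no promoter loop in any list.

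**Figure D5:**
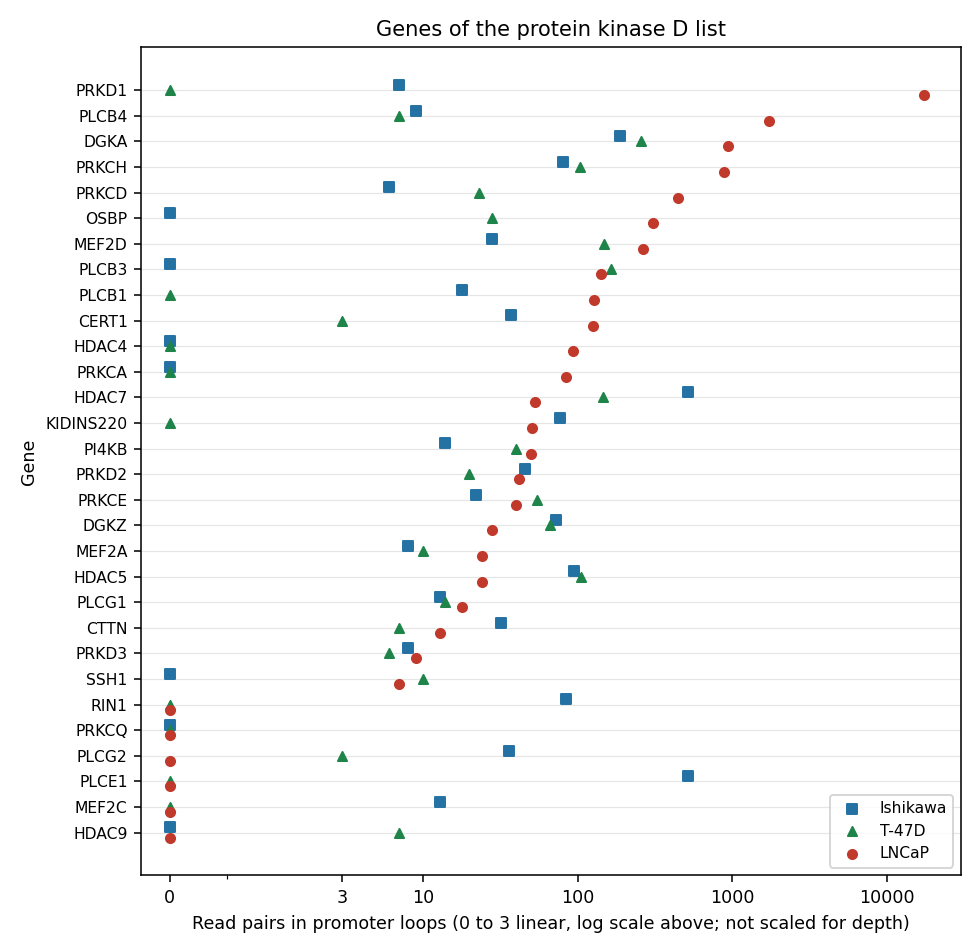
Read pairs in promoter loops of the 30 genes of the protein kinase D list in Ishikawa (squares), T-47D (triangles) and LNCaP (circles), on a scale that is linear from 0 to 3 and logarithmic above, not scaled for depth. PRKD1 stands apart in LNCaP with 17318, and the next gene, PLCB4, has 1729.

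The sequence of the anchors was read from GRCh37, and none of it was used by the rule. The 71 LNCaP anchors of the set had a median GC content of 36.0%, against 42.5% over all 43549 LNCaP anchors, and a median of 2.14 GATC sites per kb against 2.24. The forkhead motif TGTTTAC, searched on both strands, occurred 0.258 times per kb in the set and 0.197 times per kb over all anchors. The 2 groups of anchors were not matched for GC content, and its part in this difference was not tested. The promoter and exon 2 anchors held 13 matches each and the intron 1 anchor held 10. As many matches were found in 28.6, 33.3 and 56.5% of LNCaP anchors of a like width. The motif CCAATAAA of HOXB13, a homeobox factor of the prostate, occurred 0.0608 times per kb in the set and 0.0581 over all anchors. The palindromic androgen response element, searched as its 15-base consensus with 3 free bases in the middle, had no match in the 71 anchors, and 0.181% of all LNCaP anchors held one.

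A match to the CTCF core consensus was found in 2 of the 71 anchors (2.82%), against 2.66% of all LNCaP anchors. One lay in the upstream anchor, at positions 30474517 to 30474528 on the minus strand, and the other in an intron 2 anchor (30151563 to 30154862) with 123 read pairs in the set. The upstream stretch is shown because this anchor had the second highest read pairs per kb of the list. In capitals are the CTCF match and, 115 bases further along, a forkhead match, with no overlap between them. A match describes letters only and is not evidence of binding.
Upstream anchor stretch, chr14:30474380-30474543, minus strand: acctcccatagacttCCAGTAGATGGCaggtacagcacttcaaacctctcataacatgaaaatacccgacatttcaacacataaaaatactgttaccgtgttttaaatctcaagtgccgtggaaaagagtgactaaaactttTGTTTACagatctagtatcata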

How the data were processed

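Each cell line had 1 list of H3K27ac HiChIP loops, pooled over 4 Ishikawa samples and 2 LNCaP samples and made from 1 T-47D sample. Per the study's methods, the authors aligned reads to hg19 with HiC-Pro, called loops with hichipper, and removed those with fewer than 3 reads or an FDR of 0.05 or more. The deposited values are counts of read pairs per loop, not scaled for depth. Rows pairing an anchor with itself were left out, and Ishikawa rows of the same loop were summed over its 4 sorted parts. Start sites came from GENCODE on GRCh37, and the mitochondrial genes were left out of the 20163 protein-coding genes.

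Loops, anchors and genes were ranked within each list, with ranks also against loops of a like span (within 1.2-fold) and after division by anchor width. With 1 list per line there was no replicate and no test. Shares carry 95% Wilson intervals, which cover counting error only, since PCR reads without molecular identifiers are not independent molecules. The genes named were PRKD1, the pathway list, coding neighbours within 2 Mb, genes joined to its promoter, the 3 nearest by promoter read pairs, those at the 5 strongest loops of each list and label-check genes, and not every gene that met this rule is reported here. The members and lists were chosen with earlier results of these data known. Promoter sequences were checked against RefSeq (GRCh37). Alternatives changed the read pair minimum, span, promoter window, start site, Ishikawa parts and width scaling. Scripts were tested on simulated data and used Python 3.11.15, numpy 2.4.6, pandas 2.3.3, scipy 1.17.1 and matplotlib 3.10.9.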

Additional observations from a re-analysis of the deposited data

Results flagged for a closer look

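Ishikawa rows that pair an anchor with itself are no loops and entered no comparison, yet 7 such rows in the PRKD1 window held 36 read pairs over 4 anchors, against 56 read pairs in its 15 loops. This signal in unused rows is why it is listed here. The anchor at 30354952 to 30373865, in intron 1 near the canonical start, held 22 of them, the anchor at 30020370 to 30029322 held 8, and those at 30398007 to 30404712 and 30432740 to 30442952 held 3 each. In T-47D, 0 such rows lay over the gene. All 149226 rows of the LNCaP list were loops, so it held no such rows to compare. Read pairs of such rows were not counted over other windows, so the 36 are a description without a comparison.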

How the results depend on the processing

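Of 100 alternative values, 56 stayed close to those reported, 44 moved and 0 reversed. This tally says little about stability. The values that stayed include all those of T-47D, which were 0 throughout and which stricter settings could not change. Counts, shares and ranks have no sign to reverse. In Ishikawa, the loops of the set numbered 2 (12 read pairs, 0.00165% of the list) with a minimum of 5 read pairs, 0 (0 read pairs, 0%) with a minimum of 10, 2 (12 read pairs, 0.00181%) when loops had to be in 2 or more parts, and 2 (7 read pairs, 0.000673%) with promoter loops alone, and spans of 20 kb to 1 Mb gave 0.00708%. Distal anchors linked to PRKD1 in Ishikawa numbered 5 with a promoter window of 2 kb, and 0 with the outermost or canonical start alone, with minimums of 5 or 10, or in 2 or more parts. In LNCaP, the share was 1.38% with a minimum of 5 read pairs, 1.66% (132 loops, 33 linked distal anchors) with a minimum of 10, 1.58% with spans of 20 kb to 1 Mb, 0.959% (171 loops) with promoter loops alone and 1.17% (174 loops, 0 linked distal anchors) with the outermost start alone. The canonical start alone, chosen after seeing the data, gave 1.201%, and with its promoter loops alone LNCaP had 63 loops, 9887 read pairs and 0.548%, and Ishikawa had 0 loops, 0 read pairs and 0%. The 3 strongest loops ranked 8459, 10550 and 19152 per product of anchor widths and 5, 12 and 22 per wider anchor, and loops 2 and 3 by strength each ranked 1 among loops of a like span. No paired analysis was possible because each list pools its samples, and for the same reason no sample could be left out. Depth limits the weak loops, since contacts below 3 read pairs are not listed.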
